A study of Mus musculus with 16 samples.

Results

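Macrophage marker genes were followed in the inguinal mammary gland of mice, from RNA of the whole gland. The group was chosen by name and holds 10 genes, Csf1r, Adgre1, Cd68, Lyz2, Cd14, C1qa, C1qb, C1qc, Mrc1 and Cd163, out of 22196 genes with a listed transcript, and all 10 were among the 12506 genes with enough reads to be tested. The 16 libraries form 4 groups of 4, which are HFD metformin, HFD control, NCD metformin and NCD control. HFD is a high fat diet that the study's title places in lactation, NCD is the other diet and is not spelled out in the labels, and metformin is a drug that lowers blood glucose. All groups carry the age label postnatal day 16, which may count from the birth of the litter and not be the age of the sampled mice, since the title names mid-lactation, and the labels give neither a strain, a dose, nor whether the libraries within a group are of different animals. The p-values therefore reflect the spread among libraries, and that spread may be technical. The study asked how the diet and the drug affect gene expression in the lactating gland.

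Macrophages are phagocytes that live in most tissues. In the mammary gland they lie along the ducts and alveoli, clear dying epithelial cells and milk debris, and become more numerous when the gland regresses after weaning. They depend on the growth factors CSF1 and IL34, which act through the receptor encoded by Csf1r, and on the transcription factor PU.1 (gene Spi1).

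Totals ranged from 8649316 to 39156617 estimated counts per library, with a median of 28944266, and HFD control 4 was the shallowest. CPM is a gene's count scaled to a fixed library total, here after TMM scaling, and compares 1 gene between libraries. TPM is also relative to an effective length, which is shorter than the coding length, and compares genes. The shortening weighs most on short transcripts, as 313 coding bases of an Adgre1 transcript counted as 66.0 to 71.2. A floor of 3 counts came to 0.0766 to 0.347 CPM, which covers counting error only. Some libraries stood apart in other tissue. Summed skeletal muscle markers (16 genes) reached 4880 CPM in NCD control 3, against 1.38 to 184 CPM in the other 15 libraries, and summed cell cycle genes (16 genes) reached 154 CPM in HFD metformin 4, against 45.5 to 74.4 CPM in the others.

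All 10 genes were detected in every library, with at least 20 counts (Cd68 in HFD control 4). The genes fell into a high and a low tier. Lyz2, which encodes lysozyme M, an enzyme that cuts bacterial cell walls, had the highest level at 28.3 ± 8.16 TPM over the 16 libraries (SD), above 93.3% of the tested genes. Cd14, which encodes the surface receptor that hands bacterial lipopolysaccharide to Toll-like receptor 4, had 14 ± 7.21 TPM. The coding sequence of Lyz2 has 447 bases and that of Cd14 has 1101. In CPM, which takes no account of length, the order was reversed, with means of 14.2 for Lyz2 and 37.2 for Cd14. The lead of Lyz2 over Cd14 therefore rests on the correction for length. The genes of complement C1q, the recognition protein of the classical complement pathway, followed with 12.7 ± 1.98 TPM for C1qa, 11.1 ± 1.93 TPM for C1qb and 7.97 ± 1.73 TPM for C1qc. The low tier began with Csf1r at 1.48 ± 0.379 TPM and with Cd68, which encodes a glycoprotein of lysosomes and endosomes, at 1.36 ± 0.368 TPM. It ended with Adgre1, which encodes the surface protein F4/80, at 0.665 ± 0.293 TPM, and with the scavenger receptor genes Cd163 (0.338 ± 0.114 TPM) and Mrc1 (0.287 ± 0.102 TPM). Between neighbours in this order, only C1qc and Csf1r had ranges that did not overlap, with C1qc 5.45-fold higher on average. Cd14 was above C1qa in 8 of 16 libraries, Csf1r above Cd68 in 9 of 16, and Cd163 above Mrc1 in 11 of 16, so these 3 pairs had no fixed order. Lysozyme M and lysozyme P (Lyz1) have coding sequences with 425 of 447 identical bases, and reads from the shared stretches can be split between them. Lyz1 had 114 counts over all libraries, against 6377 for Lyz2.

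**Figure D1:**
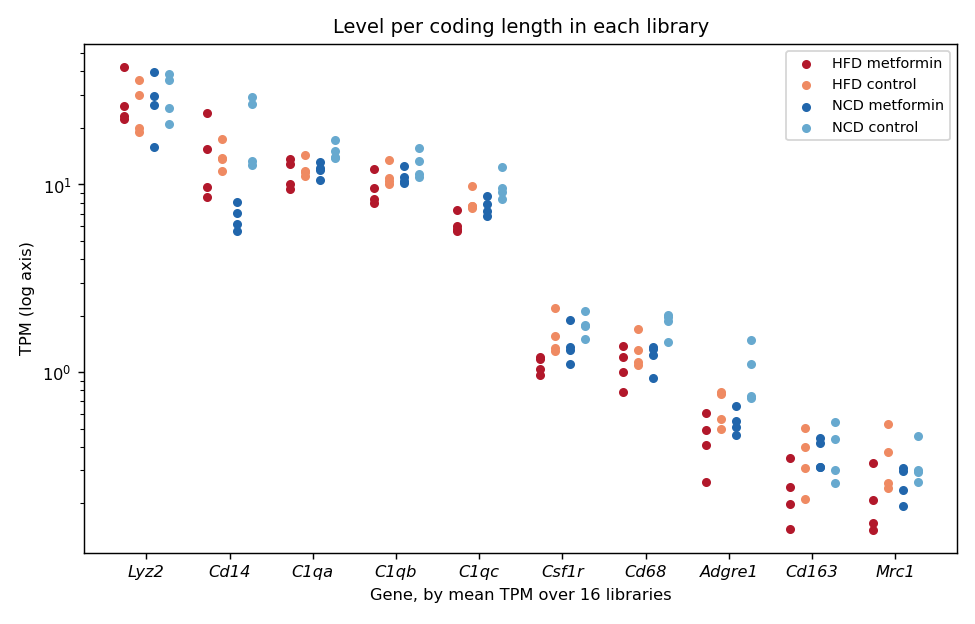
Level of each gene in TPM on a log axis, with 1 point per library and colours for the 4 groups, genes ordered by their mean over the 16 libraries. The gap between C1qc and Csf1r is the only place in the order where neighbouring ranges do not overlap, and the lowest Cd14 points are those of NCD metformin.

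The label macrophage was checked against other genes of these cells. Of 28 further macrophage genes 22 had enough reads to be tested, while Msr1, Marco, Timd4, Vsig4, Cd5l and Trem2 did not, and Marco, Vsig4 and Cd5l never exceeded 3 counts in a library. Summed CPM of the 28 genes ranged from 99.5 to 121 in HFD metformin, 112 to 136 in HFD control, 91.7 to 111 in NCD metformin and 119 to 126 in NCD control. Markers of cells that share some of these genes were also measured. Dendritic cell markers (13 genes, 6 tested) summed to 179 to 285 CPM over all libraries, led by genes of MHC class II, which macrophages also express. Of the 11 neutrophil markers 3 had enough reads to be tested. Ly6g was at 0 counts in every library, and Mpo, Camp, Ngp and Retnlg never exceeded 3 counts.

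Among the comparisons of 2 groups, metformin on NCD held the largest difference in a macrophage marker. Cd14 lies on chromosome 18 of GRCm38 from 36725067 to 36726798. Its level was 14.6, 18.9, 20.8 and 16.7 CPM in NCD metformin, against 62.4, 32.2, 68.8 and 31.3 CPM in NCD control. Every metformin library lay below every control library, and the control libraries split into a higher and a lower pair. Cd14 fell by 1.45 ± 0.30 (SE) on the log2 scale with metformin, with an adjusted p of 0.0134 (quasi-likelihood test of edgeR, Benjamini-Hochberg over all 12506 genes, threshold 0.05). The call was kept in 25 of 25 alternative settings, with log2 fold changes from -1.62 to -1.25. Without NCD control 3, the library with muscle RNA, it was -1.25 (adjusted p = 0.0276, edgeR). In RNA of a whole gland, fewer cells of a type and less RNA of a gene per cell cannot be told apart.

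No other macrophage marker passed the test in this comparison. Cd14 was 1 of 10 called, lower, and of all tested genes 6.03% were called lower and 10% in either direction. An unadjusted p under 0.05 was reached by 3 of 10 (Cd14, Cd68 and Adgre1, all negative), and by 27.9% of all tested genes (15.4% negative). The other 9 genes differed by -0.47 to 0.08 on the log2 scale. Adgre1 had 3.51, 3.71, 4.25 and 4.13 CPM in NCD metformin, against 4.79, 5.59, 5.46 and 5.28 CPM in NCD control. The 2 groups did not overlap for Adgre1, yet the difference did not pass the test (log2 fold change -0.44 ± 0.20, unadjusted p = 0.0412, adjusted p = 0.161, edgeR). Cd68 had 2.59, 2.91, 2.71 and 1.99 CPM in NCD metformin, against 3.49, 4.03, 2.76 and 3.82 CPM in NCD control. Only the lowest control library of Cd68 lay within the metformin range, and the log2 fold change was -0.47 ± 0.21 (adjusted p = 0.156, edgeR). Groups that do not overlap were seen for Cd14 and Adgre1, or 2 of 10, both lower, and for 18.6% of all tested genes (9.82% lower). The median log2 fold change of the 10 genes was -0.20, against 0.00 for all tested genes, and 9 of 10 were negative, against 50.3% of all tested genes. Among the 9, Lyz2 was at -0.00 and turned positive in 17 of 25 alternatives, and C1qb (-0.07) in 1.

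Metformin on HFD gave 0 calls among the 10 genes, by edgeR and by DESeq2. Of all tested genes 0.168% were called, and an unadjusted p under 0.05 was reached by Csf1r and C1qc, 2 of 10, and by 12.8% of all tested genes. Csf1r had 9.77, 10.7, 10.2 and 10.2 CPM in HFD metformin, against 11.6, 11.7, 13.7 and 17.1 CPM in HFD control. Its metformin libraries lay close together and below all control libraries (log2 fold change -0.38 ± 0.15, adjusted p = 0.291, edgeR). C1qc had 9.31, 11, 10.4 and 8.72 CPM in HFD metformin, against 11.7, 11.8, 11.5 and 12.6 CPM in HFD control. For C1qc too the groups did not overlap (log2 fold change -0.27 ± 0.12, adjusted p = 0.356, edgeR), and such separation was found for 2 of 10 genes here and for 6.65% of all tested genes (2.93% lower). Cd14 differed by 0.14 ± 0.29 on this diet, with 73.2, 24.8, 32.7 and 42.0 CPM in HFD metformin and 33.3, 40.5, 38.9 and 43.3 CPM in HFD control. The HFD metformin libraries lay on both sides of the controls, and without HFD metformin 1 the log2 fold change was -0.23 (adjusted p = 0.757, edgeR). The largest difference on this diet was that of Mrc1, with 2.85, 4.28, 2.42 and 1.78 CPM in HFD metformin, against 3.03, 3.36, 4.74 and 5.8 CPM in HFD control. The groups overlapped through HFD metformin 2, and the log2 fold change of -0.55 ± 0.27 did not pass (adjusted p = 0.425, edgeR). Lyz2 was the member with the largest positive value, 0.28 ± 0.25, with 11.6 to 22 CPM in HFD metformin against 10.8 to 16.1 CPM in HFD control. The median of the 10 genes was -0.22, against 0.00 for all tested genes. C1qa turned from 0.04 to -0.03 when the libraries were scaled by their totals alone.

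**Figure D2:**
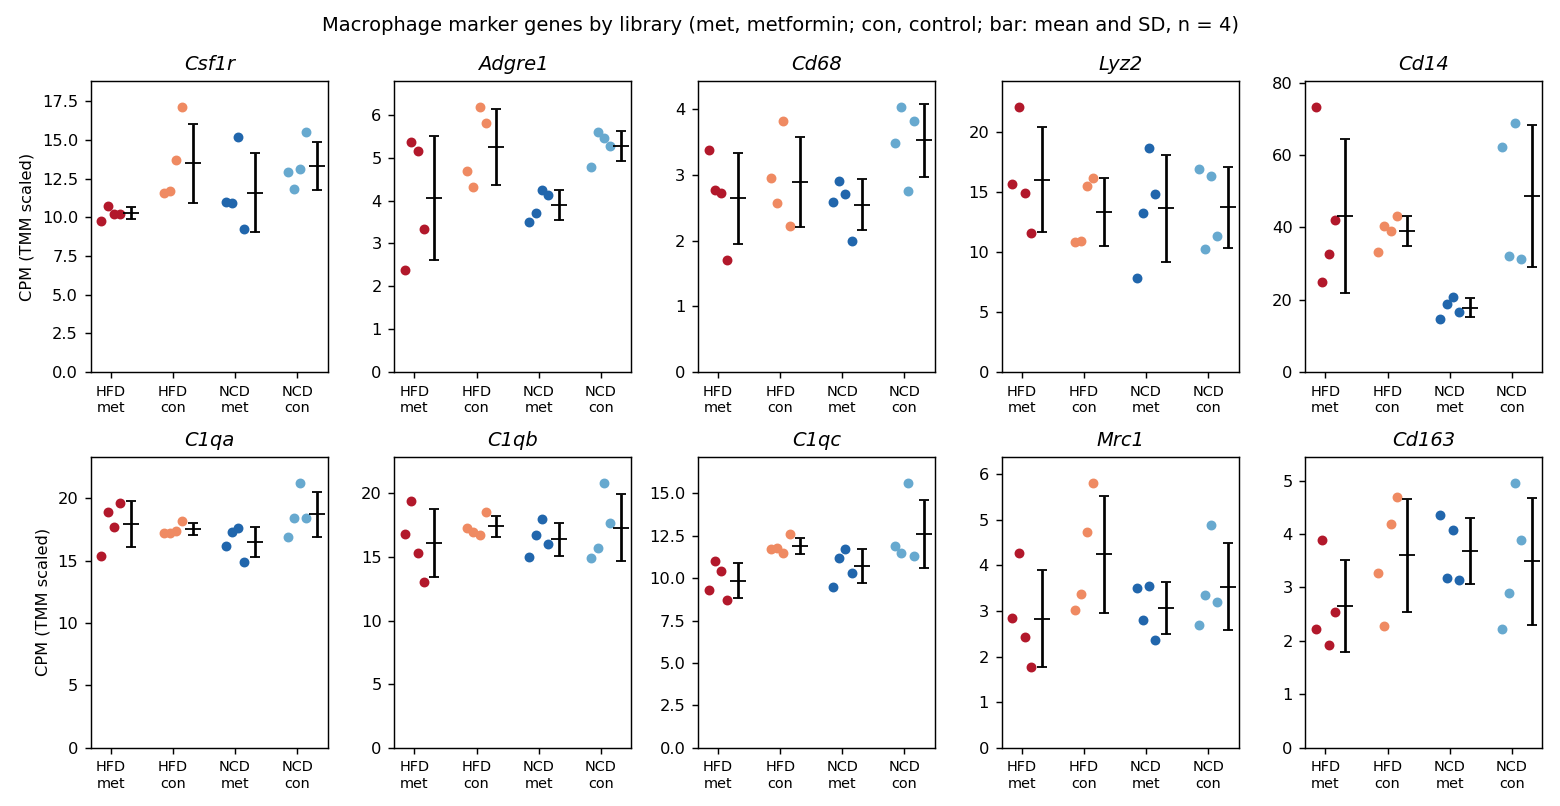
CPM after TMM scaling of each gene in each library, by group from left to right HFD metformin, HFD control, NCD metformin and NCD control, with the mean and SD of 4 libraries beside the points. Cd14 is lowest in the 4 NCD metformin libraries (14.6 to 20.8 CPM), while C1qa keeps within 14.9 and 21.2 CPM throughout.

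Whether the metformin effect on Cd14 differed between the diets was tested as an interaction. The effect on HFD minus the effect on NCD was 1.60 ± 0.42 on the log2 scale, with an unadjusted p of 0.00148 and an adjusted p of 0.334 by edgeR, and it did not pass. For the interaction 0.00% of all tested genes were called by edgeR and 9.94% had an unadjusted p under 0.05, Cd14 being the only one of the 10 genes among them. With DESeq2's Wald test the interaction of Cd14 was called (adjusted p = 0.0478), 1 of 22 genes called there. Over all 24 alternatives the interaction of Cd14 ranged from 1.22 to 1.79 and its adjusted p from 0.0478 to 0.57. The other 9 genes had interactions of -0.48 to 0.30.

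With both diets together, 5 of the 10 genes had an unadjusted p under 0.05 for metformin against control, all of them negative, and 0 of 10 passed after adjustment by edgeR, while 3 of 10 passed by DESeq2 (Cd14, C1qc and Csf1r). Of all tested genes 28.9% had an unadjusted p under 0.05 (14.8% negative) and 11.4% were called, both by edgeR. The share of all genes that DESeq2 called is not given here, so its 3 of 10 cannot be read against 11.4%. The nearest to the threshold was Cd14 (log2 fold change -0.66 ± 0.21, adjusted p = 0.0522, edgeR). C1qc had -0.25 ± 0.08 with an adjusted p of 0.0556 (edgeR) and lay below the pooled control mean in 8 of 8 metformin libraries. That mean includes NCD control 3, at 15.6 CPM, and on NCD the groups overlapped (11.7 CPM in NCD metformin 3, 11.3 CPM in NCD control 4). With 1 library left out, the averaged difference of C1qc ran from -0.28 to -0.20 and that on NCD from -0.29 to -0.12. Csf1r had -0.29 ± 0.11 (adjusted p = 0.0764, edgeR) and Adgre1 had -0.39 ± 0.14 (adjusted p = 0.0796, edgeR), each lower in 7 of 8 libraries. Cd68 followed with -0.32 ± 0.15 and an adjusted p of 0.172 (edgeR). These 5 genes encode 3 surface proteins, a lysosomal protein and 1 chain of C1q. The scavenger receptor Mrc1, which binds mannose on microbes and glycoproteins, differed by -0.38 ± 0.19 (adjusted p = 0.202, edgeR), Cd163 by -0.16, C1qa by -0.08, C1qb by -0.09 and Lyz2 by 0.14. The median of the 10 genes was -0.27, against -0.01 for all tested genes. Fibroblast markers (12 genes, all tested) had a median of -0.32 with 11 of 12 negative, against 51.2% of all tested genes. Of the 12, 4 were called lower, against 5.57% of all tested genes. Among these 4 were the collagen gene Col3a1 (-0.46 ± 0.11, adjusted p = 0.0199, edgeR) and the matrix protein gene Dpt (-0.48 ± 0.13, adjusted p = 0.0256, edgeR). Summed, they ran from 314 to 378 CPM in HFD metformin against 313 to 581 CPM in HFD control, and from 250 to 380 CPM in NCD metformin against 383 to 392 CPM in NCD control. Endothelial markers (13 genes, all tested) were mostly positive for metformin on NCD, with a median of 0.37 and 11 of 13 positive, while 50.3% of all tested genes were negative. EdgeR called 1 of the 13 higher, against 501 of all 12506 tested genes, and DESeq2 called 4 higher (Kdr, Cdh5, Tie1 and Emcn). An unadjusted p under 0.05 (edgeR) was reached by 7 of 13, against 27.9% of all tested genes. The 13 genes summed to 91.8 to 154 CPM in NCD metformin against 78.3 to 106 CPM in NCD control. The part of these cell types in the values of the macrophage markers was not tested. Some calls appeared under single settings, namely Cd14 in 6 of 24 alternatives, Csf1r and C1qc in 3 each and Adgre1 in 1. These averaged values hold the same libraries as the single-diet comparisons and are not separate evidence.

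**Figure D3:**
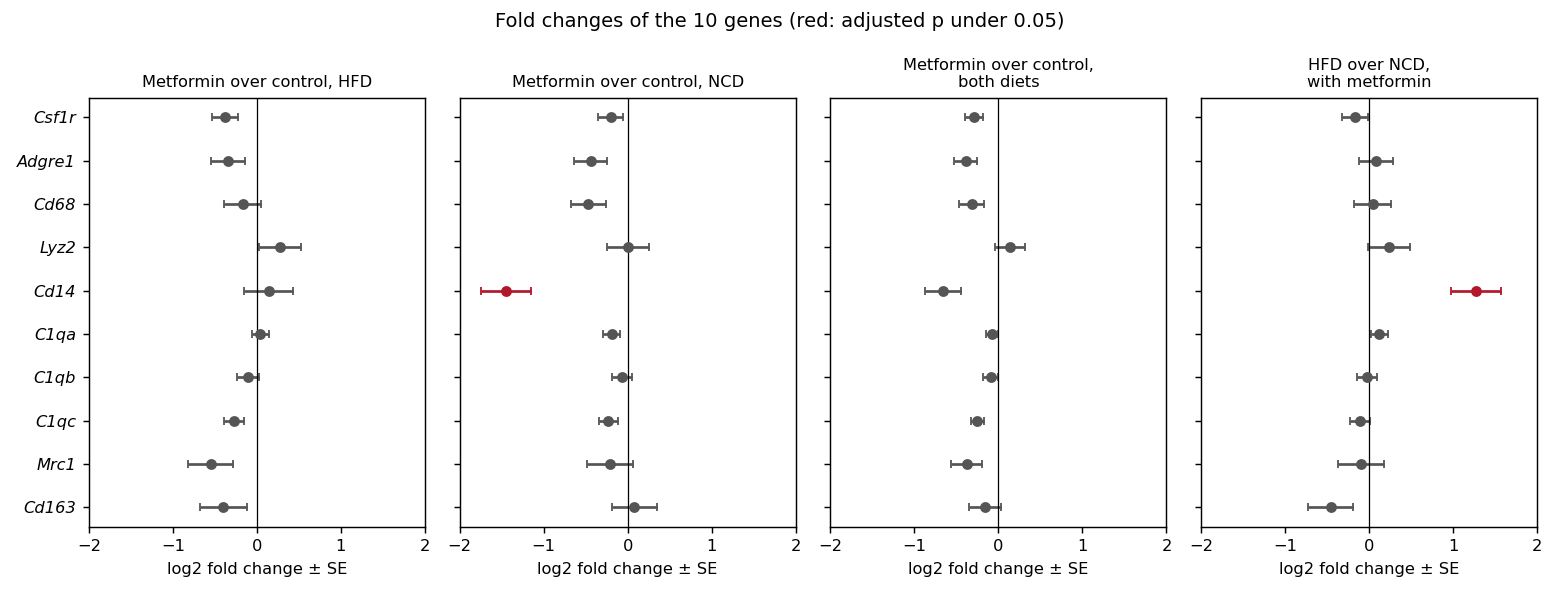
Log2 fold change and SE of the 10 genes in 4 comparisons, with genes that passed an adjusted p of 0.05 in red. Cd14 stands apart at -1.45 for metformin on NCD and at 1.27 for HFD with metformin, and the other genes lie between -0.55 and 0.28 in the 4 panels.

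The diet comparisons gave 1 call among macrophage markers. With metformin given on both diets, Cd14 was higher on HFD, with 73.2, 24.8, 32.7 and 42.0 CPM in HFD metformin against 14.6, 18.9, 20.8 and 16.7 CPM in NCD metformin. The groups did not overlap, and Cd14 rose by 1.27 ± 0.30 on the log2 scale (adjusted p = 0.0403, edgeR). It was 1 of 10 genes called, against 2.36% of all tested genes (1.86% higher), and 1 of 10 with an unadjusted p under 0.05, against 19.2%. The groups failed to overlap for 1 of 10 genes, against 10.2% of all tested genes. This call was close to the threshold. It was lost in 11 of 25 alternatives, among them leaving out any of the 4 NCD metformin libraries, HFD metformin 1, 2 or 4, or HFD control 2 or 3. Over all 25 alternatives the log2 fold change ranged from 0.90 to 1.47 and the adjusted p from 0.00109 to 0.123, and the lowest of these changes and the highest p came without HFD metformin 1. The NCD metformin libraries are shared with the comparison of metformin on NCD, so the 2 calls of Cd14 rest in part on the same 4 low values. The other 9 genes differed by -0.46 (Cd163) to 0.23 (Lyz2), with a median over the 10 of 0.01.

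Without metformin, 0 of 10 genes were called by edgeR for HFD against NCD and 0 of 10 had an unadjusted p under 0.05, with 0 of 10 called by DESeq2 as well. Of all tested genes 0.0640% were called and 7.04% had an unadjusted p under 0.05. The groups did not overlap for 0 of 10 genes and for 4.12% of all tested genes. Differences ran from -0.32 ± 0.29 for Cd14 to 0.24 ± 0.27 for Mrc1, with a median of -0.04. The C1q genes had the tightest limits. C1qa differed by -0.10, and 2 SE to either side of this reached -0.29 and 0.09. For C1qb these limits were -0.24 and 0.25 and for C1qc -0.31 and 0.15, while for Cd163 they were as wide as -0.52 and 0.57. With both treatments together, 0 of 10 genes were called for diet, against 0.936% of all tested genes, and Cd14 alone had an unadjusted p under 0.05 (log2 fold change 0.48 ± 0.21, adjusted p = 0.247, edgeR), as had 17.4% of all tested genes. Scaled by library totals alone, the median of all genes for diet moved to -0.16 without metformin, -0.18 with it and -0.17 averaged. Under that scaling 3 of the 10 genes turned from a positive to a negative difference without metformin (Csf1r, C1qb, Cd163), 3 with it (Cd68, Adgre1, C1qa) and 4 averaged (Adgre1, Lyz2, C1qa, Mrc1), none of them called.

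The libraries' title numbers have a gap between 10 and 14, which the labels do not explain, and the groups are unequally split by it. For metformin on NCD, Cd14 had a mean of 16.8 CPM in 2 metformin libraries against 54.5 CPM in 3 control libraries below the gap, and 18.8 CPM in 2 metformin libraries against 31.3 CPM in 1 control library above it. It was lower with metformin on both sides, by log2 differences of -1.63 and -0.74, and with a term for the gap in the fit the log2 fold change was -1.32 (adjusted p = 0.0219, edgeR). For HFD with metformin the differences of Cd14 were 2.13 below the gap, where HFD metformin 1 is the only HFD metformin library, and 0.79 above it. For metformin on HFD they were 1.13 below the gap, from 1 metformin and 1 control library, and -0.33 above it, from 3 of each.

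Cd14 had the widest range over libraries of the 10 genes. The SD of log2 CPM within groups was 0.47 for Cd14, close to 0.41 for Cd163 and 0.40 for Lyz2 and Mrc1, and was lowest for C1qa at 0.12. It was 0.22 over all tested genes between 2 and 80 CPM. The highest library of Cd14 was 5.0-fold above the lowest, against 3.17-fold for Mrc1, the next, and 1.42-fold for C1qa, the steadiest. Summed over the other 9 genes, the level was 82.3 ± 11.2 CPM in HFD metformin, 89.6 ± 9.47 in HFD control, 82.0 ± 9.77 in NCD metformin and 91.4 ± 9.51 in NCD control (SD, n = 4 each). These sums overlapped between all groups. Cd14 made up 17.8 ± 0.89% of the sum of all 10 genes in NCD metformin, against 33.8 ± 8.15% in NCD control, 33.5 ± 12% in HFD metformin and 30.3 ± 2.03% in HFD control. In NCD metformin its share ran from 16.6 to 18.7%, below the lowest library of any other group (20.1%).

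**Figure D4:**
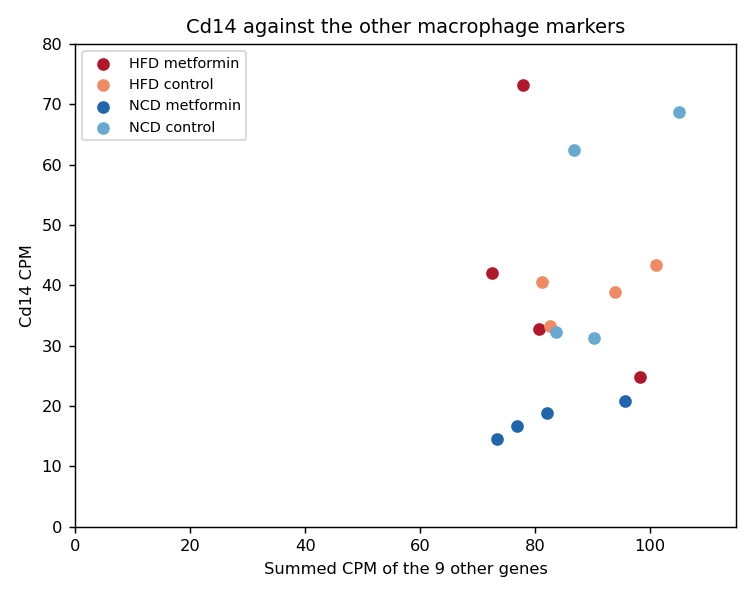
CPM of Cd14 in each library against the summed CPM of the other 9 genes, coloured by group. The 4 NCD metformin points lie below all others on the Cd14 axis while their sums for the other genes (73.4 to 95.6 CPM) fall among those of the other groups.

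Cd14 is also made by mammary epithelial cells, in mice most of all when the gland begins to regress, a process that depends on the transcription factor STAT3. A list of 20 STAT3 and involution genes (18 tested) was therefore set beside it. On NCD, 5 of the 18 were lower with metformin and 0 higher, against 6.03% lower among all tested genes, with a median log2 fold change of -0.81. The 4 with the lowest p were Chil1, a chitinase-like protein (-1.73 ± 0.29, adjusted p = 0.00705, edgeR), Stat3 itself (-0.79 ± 0.17), Orm2, an acute phase protein (-1.98 ± 0.51), and Lcn2, an iron-binding defence protein (-1.08 ± 0.29). The call of Chil1 was kept in 25 of 25 alternatives, that of Stat3 in 24 and those of Orm2 and Lcn2 in 20 each. Summed CPM of the list ranged from 822 to 1180 in NCD metformin and from 1390 to 1620 in NCD control, and did not overlap. In HFD metformin it ranged from 790 to 1390, HFD metformin 1 being highest for both this list and Cd14, and in HFD control from 998 to 1160. For HFD with metformin, where Cd14 was called higher, edgeR called 0 of the 18. There 9 were positive and 9 negative, with a median of -0.01, and DESeq2 called Fosl2 and Stat3 higher. For metformin on HFD and for diet without metformin edgeR also called 0 of the 18, with medians of -0.18 and -0.40 and 11 and 14 of 18 negative. An unadjusted p under 0.05 (edgeR) was reached by 6 and 9 of the 18, against 12.8% and 7.04% of all tested genes. DESeq2 called Chil1 lower for metformin on HFD, and Chil1 and Orm2 lower on HFD without metformin. Luminal epithelial markers (11 genes) summed to 712 to 848 CPM in NCD metformin and 744 to 759 CPM in NCD control. The sum hides differences in both directions, with 5 genes positive and 6 negative. An unadjusted p under 0.05 (edgeR) was reached by 6 of 11, against 27.9% of all tested genes. EdgeR called 1 lower and 0 higher, and DESeq2 called 3 lower and 2 higher. Neutrophil markers (11 genes, 3 tested), a list that includes the milk protein gene Ltf, summed to 532 to 1300 CPM in NCD metformin and 1130 to 1270 CPM in NCD control. All 3 tested were negative for metformin on NCD (median -0.84) and averaged over diets (median -0.62). An unadjusted p under 0.05 (edgeR) was reached by 2 and 3 of them, against 27.9% and 28.9% of all tested genes. In both comparisons 0 were called by edgeR and 0 by DESeq2. The part of epithelial or other cells in the difference of Cd14 was not tested.

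In the pathway of Cd14, 1 of 21 tested genes of a list of 22 was called lower with metformin on NCD by edgeR and 0 higher, a share no greater than the 6.03% of all tested genes, while DESeq2 called 3 lower and 1 higher. The gene called by edgeR was Nfkbia, the inhibitor that NF-kB induces to end its own activity, with 46.4 ± 2.61 CPM in NCD metformin against 71.8 ± 8.98 CPM in NCD control (log2 fold change -0.63 ± 0.17, adjusted p = 0.0303, edgeR, kept in 20 of 25 alternatives). The list's median was -0.12. With metformin on both diets, HFD was higher for 2 of the 21, against 1.86% of all tested genes. The 2 were Nfkbia (0.72 ± 0.17, adjusted p = 0.0388, edgeR) and Tlr4, the receptor that CD14 serves (0.71 ± 0.17, adjusted p = 0.0445, edgeR). Tlr4 had 9.44 ± 2.0 CPM in HFD metformin against 5.78 ± 0.99 CPM in NCD metformin (SD, n = 4). In this diet comparison the Tlr4 call was kept in 10 of 25 alternatives and that of Nfkbia in 14. For metformin on HFD and for diet without metformin, 0 of 21 were called by edgeR and 0 by DESeq2, with 2 and 3 at an unadjusted p under 0.05.

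Other macrophage genes moved in the comparison of metformin on NCD as follows. Of 22 tested, 3 were lower and 0 higher, with a median of -0.22, and 6.03% of all tested genes were lower. Mpeg1, which encodes a pore-forming protein of phagocytes, had 9.20 ± 0.588 CPM in NCD metformin against 14.7 ± 2.33 CPM in NCD control (-0.67 ± 0.17, adjusted p = 0.0246, edgeR). Ctss, a lysosomal protease that prepares antigen, differed by -0.42 ± 0.11, and Cybb, the catalytic chain of the phagocyte oxidase, by -0.87 ± 0.25. Their calls were kept in 21, 18 and 17 of 25 alternatives. Averaged over diets, Mpeg1, Cybb, Ctss and Cd84, a receptor of leukocytes, were lower, 4 of 22 against 5.57% of all tested genes, with log2 fold changes of -0.58, -0.81, -0.32 and -0.70. The calls of Mpeg1, Cybb and Ctss held in 24 of 24 alternatives and that of Cd84 in 8 of 23. Ptprc, which encodes CD45 of all leukocytes, was lower as well (-0.54 ± 0.14, adjusted p = 0.0276, edgeR), 1 of 12 pan-leukocyte markers, whose median was -0.08. For metformin on HFD 0 genes of these 2 lists were called by edgeR and 0 by DESeq2, with 5 of 22 further macrophage genes and 2 of 12 pan-leukocyte markers at an unadjusted p under 0.05. With metformin on both diets, Mertk, a receptor for the uptake of dying cells, was higher on HFD (0.90 ± 0.18, adjusted p = 0.0322, edgeR, kept in 20 of 25 alternatives).

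CSF1 receptor ligands and macrophage transcription factors were set beside Csf1r. Cebpb, a factor of macrophages and of mammary epithelium, had 58.2 ± 17.9 CPM in NCD metformin against 125 ± 28.8 CPM in NCD control, and was lower with metformin (log2 fold change -1.10 ± 0.27, adjusted p = 0.0244, edgeR, kept in 21 of 25 alternatives). Csf1, Il34 and Spi1 were not called by edgeR in any of the 7 comparisons, and DESeq2 called Csf1 lower on HFD with metformin (-0.78 ± 0.25, adjusted p = 0.0991 by edgeR). Of 19 monocyte and inflammatory genes 11 were tested, and 0 were called by edgeR for metformin on NCD or on HFD, with 2 and 1 at an unadjusted p under 0.05. DESeq2 called 1 gene lower on each diet, Cxcl2, a neutrophil attractant, on NCD and Il1b on HFD. Averaged over diets, Il1b, an inflammatory cytokine (-1.12 ± 0.34), and Arg1, an arginase of some macrophages (-0.71 ± 0.22), were lower with metformin, and their calls held in 11 of 24 and 6 of 23 alternatives.

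The C1q genes lie side by side on the minus strand of chromosome 4 of GRCm38, with C1qb from 136880129 to 136886187, C1qc from 136889804 to 136893065 and C1qa from 136895917 to 136898803. The C1q protein holds its 3 chains in equal number. Of the summed TPM of the 3 genes, C1qa took 40 ± 2.69%, C1qb 35.1 ± 2.13% and C1qc 24.9 ± 1.68% over the 16 libraries (SD). HFD metformin 4 departed most from these shares, with 48.7% for C1qa, 29.9% for C1qb and 21.3% for C1qc. The share of C1qc was 22.8 ± 1.23% in HFD metformin, against 25.8 ± 0.278% in HFD control, where all 4 libraries lay between 25.6 and 26.1%, above all 4 of HFD metformin (21.3 to 24.3%). It was 24.9 ± 0.824% in NCD metformin, against 26.2 ± 1.58% in NCD control. Of the partners of C1q in the classical complement pathway (15 genes, 14 tested), C1qbp was higher with metformin on NCD (0.70 ± 0.13, adjusted p = 0.00846, edgeR). It encodes a mitochondrial protein that was first found by its binding to C1q. The list's median was 0.22. Averaged over diets C1qbp (0.63 ± 0.09) and C2, a protease of the pathway (1.02 ± 0.27), were higher with metformin. All 14 tested genes of the list were negative for HFD with metformin, with a median of -0.36, against 50.5% negative among all tested genes. Of the 14, 1 was called, against 2.36% of all tested genes. C3, the central complement protein, was lower on HFD, both with metformin (-1.72 ± 0.42, call kept in 12 of 25 alternatives) and averaged over treatments (-1.51 ± 0.29, kept in 22 of 24).

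Over the 16 libraries the macrophage markers varied together in part. Pearson's r of log2 CPM was 0.77 between C1qb and Mrc1, 0.74 between C1qb and C1qc, 0.73 between Mrc1 and Cd163, and 0.68 between C1qc and Mrc1, with Spearman's rho of 0.69, 0.51, 0.80 and 0.58. Within groups, after the group means were taken out, these 4 values of r were 0.76, 0.80, 0.78 and 0.61. Without the 2 libraries farthest from the median of the first gene named they were 0.60, 0.39, 0.73 and 0.45, and the value of C1qb and C1qc fell most. Leaving out the extremes of a gene narrows its range, which can lower r by itself. How far the likeness of C1qb and C1qc rests on 2 libraries was therefore not decided. Cd14, Lyz2 and Cd68 were least like the others, with medians of 0.18, 0.22 and 0.23 over their 9 pairs, and Mrc1 had the highest median, 0.57. Within groups the median was 0.00 for Cd14 and -0.02 for Cd68, against 0.41 for Lyz2. The libraries share a tissue, and depth, cell makeup and the scaling enter all genes, so these values are descriptions.

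**Figure D5:**
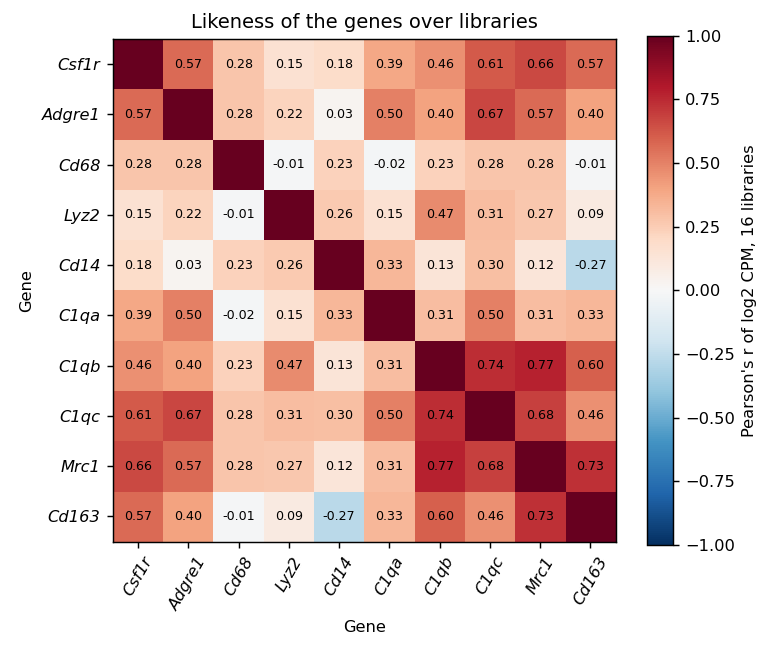
Pearson's r of log2 CPM over 16 libraries for each pair of the 10 genes. The pairs among C1qb, C1qc, Mrc1 and Cd163 lie between 0.46 and 0.77, while the rows of Cd14 and Cd68 stay at or below 0.33.

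The 250 bases before the start of C1qb, C1qc, Mrc1 and Cd163 are shown because the pairs with the highest r lie among these 4 genes. They come from RefSeq on GRCm38.p6, which gave a promoter for 6 of the 10 genes, and run 5′ to 3′ on the gene's strand. The starts are those of RefSeq and differ from those of GENCODE, which gave the gene bounds, so that 151 of the 250 bases of C1qc and 22 of those of Mrc1 lie within the GENCODE gene. Capitals mark GAGGAA, the core letters that PU.1 binds, or TTCCTC, the same letters on the other strand.
C1qb, chr4:136886201-136886450, minus strand: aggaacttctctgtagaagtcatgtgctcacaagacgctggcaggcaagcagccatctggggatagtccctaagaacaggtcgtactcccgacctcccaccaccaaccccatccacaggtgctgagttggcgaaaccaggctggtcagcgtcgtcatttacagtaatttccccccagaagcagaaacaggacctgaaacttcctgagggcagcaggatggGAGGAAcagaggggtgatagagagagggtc
C1qc, chr4:136892915-136893164, minus strand: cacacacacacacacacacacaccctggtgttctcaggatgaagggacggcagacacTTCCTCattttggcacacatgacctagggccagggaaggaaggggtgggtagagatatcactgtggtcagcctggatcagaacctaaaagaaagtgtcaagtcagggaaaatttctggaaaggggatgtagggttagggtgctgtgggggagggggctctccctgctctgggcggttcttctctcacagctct
Mrc1, chr2:14229164-14229413, plus strand: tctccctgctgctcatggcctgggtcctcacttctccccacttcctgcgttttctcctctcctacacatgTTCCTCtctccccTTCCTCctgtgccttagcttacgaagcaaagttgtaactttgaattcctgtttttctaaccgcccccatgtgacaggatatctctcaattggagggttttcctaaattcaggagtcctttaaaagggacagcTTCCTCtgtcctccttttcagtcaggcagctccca
Cd163, chr6:124304401-124304650, plus strand: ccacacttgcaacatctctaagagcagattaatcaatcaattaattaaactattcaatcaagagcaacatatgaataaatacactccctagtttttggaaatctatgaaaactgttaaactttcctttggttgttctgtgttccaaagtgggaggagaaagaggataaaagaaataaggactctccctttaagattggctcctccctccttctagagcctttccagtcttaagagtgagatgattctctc
C1qb had 1 match, 30 bases before the RefSeq start, C1qc had 1 on the other strand, 193 bases before it, and Mrc1 had 3 on the other strand, the nearest 35 bases before it. Cd68 also had 1 match, while Lyz2 and Cd163 had 0. The letters occur on either strand in 7639 of 32851 promoter windows of that length, or 23.3%. A match is a description of the sequence and shows no binding.

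The genes most like each marker over the 16 libraries, among all other tested genes, were taken from the 3 with the highest r. For Mrc1 they included F13a1 (0.88) and Wdfy4 (0.87). F13a1, the clotting factor XIII A chain, is made by tissue macrophages. For Csf1r they were Iqsec2 (0.89), Themis2 (0.88), a signalling protein of myeloid and B cells, and Dag1 (0.87), and for Cd163 they were Itgal (0.87), a leukocyte integrin chain, Igkv8-21 and Cdkn1c (0.85 each). For Cd14 they were Nedd4l (0.91), Arid5b (0.90) and Pde4b (0.90), of which Nedd4l encodes a ubiquitin ligase of epithelial sodium channels. For C1qc the first was Mb (0.85), the oxygen carrier of muscle, and NCD control 3 was the library with the most muscle RNA and the most C1qc. For the remaining markers the first was 2010300C02Rik for Cd68 (0.78), Nlrp1b for Adgre1 (0.85) and Pef1 for Lyz2 (0.85). It was Slc41a2 for C1qa (0.79) and Tshr for C1qb (0.85). All these values were picked as the highest among all tested genes and are descriptions.

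Of 14 genes of heme and iron handling, 13 were tested, set beside Cd163 because its protein takes up hemoglobin bound to haptoglobin. Ftl1, the ferritin light chain, was higher with metformin on NCD (0.47, adjusted p = 0.0445, edgeR, kept in 12 of 25 alternatives) and averaged over diets (0.54), where Hmox1, which breaks down heme, was lower (-0.68, adjusted p = 0.0244, edgeR).

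Most of the genes were measured on 1 transcript. Cd163 was the exception, with 64.9% of its counts on 1 transcript and 35.1% on another, whose coding sequence is 114 bases longer. The share of the longer transcript ran from 0 to 100% between libraries, at 29 to 156 counts per library for the gene, so the split is not resolved at this depth. For Adgre1, 5.53 estimated counts on a transcript of 313 coding bases gave 0.821 of its 1.49 TPM in NCD control 1, although this library was the lowest of its group in CPM (4.79). Read in TPM, the NCD control level of Adgre1 is therefore raised by a few reads.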

How the data were processed

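RNA of whole mammary glands was extracted with a Qiagen RNeasy Mini Kit and, per the labels' protocols, made into stranded libraries (NEBNext Ultra II Directional). The submitters' processing notes name Salmon 1.3.0, DESeq2 1.28.1 and GRCm38.p6. The deposited tables give an estimated count and a TPM per transcript for each of 16 libraries, per the file headers. The listed lengths equal coding lengths within 3 bases for 56929 of 56929 transcripts, so reads in untranslated regions do not enter the values.

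Of 58204 transcripts 57452 matched GENCODE M21 by identifier. The other 752 held 0.165 to 0.218% of the counts and were left out. Estimated counts were summed per gene and rounded. Genes were kept by edgeR's filter on low counts (12506 of 22196), scaled by TMM and tested with edgeR 4.0.16 (R 4.3.3) by its quasi-likelihood test in 1 fit of 4 group means, with p adjusted by Benjamini-Hochberg over 12506 genes and a threshold of 0.05. The SE is the log2 fold change divided by the square root of F. Log2 CPM carried a prior count of 2. TPM was used only for levels between genes. Shares of all tested genes called, or with an unadjusted p under 0.05, are those of edgeR. Replicates are numbered by accession and are not paired.

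The 10 members and the lists beside them were chosen with earlier results of these data known. Up to 4 called genes of a list were named by lowest p, otherwise up to 2, and the 3 most alike genes per member, except items that are not reported here. The alternatives were other scalings, DESeq2 1.42.0, other filters, counts rebuilt from TPM, a term for the gap in title numbers, the compared groups alone and each library left out. The test was also tried on simulated counts.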

Additional observations from a re-analysis of the deposited data

Results flagged for a closer look

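C1qc in NCD control 3 stood apart from its group, at 15.6 CPM in NCD control 3 against 11.3, 11.5 and 11.9 CPM in the other NCD control libraries. The gap to the nearest library was 0.864 of the range of the group, above Dixon's 95% critical value for 4 samples. It was 1 of 40 checks of the 10 genes in 4 groups, of which chance marks about 1 in 20. NCD control 3 is also the library with 4880 CPM of muscle markers, and whether the 2 are linked was not tested.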

How the results depend on the processing

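No paired analysis was possible because the replicate numbers follow accession order and pair no libraries. Cd14 was called lower for metformin on NCD in all 25 alternatives. For HFD with metformin, members called fell to 0 with counts rebuilt from TPM and with only the groups compared. By DESeq2, 1 member was called for the interaction. For metformin averaged over diets, 2 members were called with library size only, 3 by DESeq2, 2 with a filter of 1 CPM in 4 libraries and 2 with the gap term. Leaving out 1 library gave 0 to 1 members called for HFD with metformin and 0 to 1 for metformin averaged over diets.

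Genes called moved as follows. With library size only there were 7 for metformin on HFD, 39 for diet without metformin, 641 for diet with metformin and 1595 for diet averaged. With DESeq2 these were 170, 65, 769 and 468, with 22 for the interaction. With counts rebuilt from TPM there were 9, 3, 88 and 44, with 682 for metformin on NCD. The gap term gave 5 for diet without metformin, and the compared groups alone gave 1 for metformin on HFD and 91 for diet with metformin. Leaving out 1 library gave 180 to 1461 genes for metformin on NCD, 3 to 44 for metformin on HFD, 711 to 1505 for metformin averaged, 2 to 13 for diet without metformin, 3 to 384 for diet with metformin, 28 to 180 for diet averaged and 0 to 1 for the interaction. The causes were not tested.

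Calls split into higher and lower as 248 and 742 with library size only, against 501 and 754 with TMM, for metformin on NCD. They were 357 and 897 against 728 and 696 for metformin averaged, 65 and 576 against 232 and 63 for diet with metformin, 2 and 37 against 2 and 6 for diet without metformin, and 49 and 1546 against 65 and 52 for diet averaged. Of the single-gene values, 4159 kept their side of the threshold, 175 lost it, 58 gained it, 8 moved in uncalled values and 0 reversed a call. At the depth of HFD control 4, Cd68 rests on 20 counts.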
